A study of Mus musculus with 10 samples.

Results

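Gas1 and 9 genes of hedgehog signalling (Ihh, Ptch1, Smo, Gli1, Gli2, Gli3, Hhip, Sufu and Boc) were followed in mouse liver after the microRNA miR-122 had been blocked. The genes were taken by symbol from the array annotation, using probes assigned to a single gene. All 10 genes were measured, Ptch1 by 2 probes and each other gene by 1, which gave 11 probes among the 36088 tested and 10 genes among 18012. Gas1 was chosen by its lower intensity in ASO livers than in saline livers, so its difference between the groups is described here without a test. The other 9 genes were added for their place in the pathway and were tested in the fit over all probes.

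The study set 5 mice given an antisense oligonucleotide (ASO) against miR-122 against 5 mice given saline, with 1 single-colour CodeLink array per liver. ASO mice, labelled as male C57Bl/6, received 50 mg/kg by intraperitoneal injection 2 times a week for 4 weeks. Saline mice, for which the labels name no sex or strain, were injected on the same schedule, and all livers were collected 2 days after the final injection. The ASO was a phosphorothioate RNA with 2′-O-methoxyethyl sugars, and no group received an oligonucleotide of another sequence, so the effects of the chemistry and of blocking miR-122 cannot be told apart.

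Hedgehog ligands are secreted lipid-modified proteins. They bind the receptor Patched, which otherwise holds the membrane protein Smoothened inactive. Once released, Smoothened acts in the primary cilium on the Gli transcription factors, and Gli proteins switch on target genes that include Ptch1, Gli1 and Hhip themselves. Gas1 is a lipid-anchored surface protein that was first found in growth-arrested fibroblasts, and with Boc and Cdon it serves as a co-receptor that helps ligand reach Patched. In liver the pathway is known mainly from bile duct cells, stellate cells and portal fibroblasts, and it is weak in healthy hepatocytes.

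The promoter windows of Gas1 and Ihh are shown because these genes had the lowest and the highest difference among the 11 probes. Both were taken from RefSeq on build GRCm38.p6, run from 250 bases before to 50 bases after the gene start and are written 5′ to 3′ on the gene's own strand. The Gas1 window lies at chr13:60177486-60177785 and the Ihh window at chr1:74951623-74951922, both on the minus strand. Capitals mark the GC box GGGCGG or its reverse complement CCGCCC and the CCAAT box or its reverse complement ATTGG.
Gas1: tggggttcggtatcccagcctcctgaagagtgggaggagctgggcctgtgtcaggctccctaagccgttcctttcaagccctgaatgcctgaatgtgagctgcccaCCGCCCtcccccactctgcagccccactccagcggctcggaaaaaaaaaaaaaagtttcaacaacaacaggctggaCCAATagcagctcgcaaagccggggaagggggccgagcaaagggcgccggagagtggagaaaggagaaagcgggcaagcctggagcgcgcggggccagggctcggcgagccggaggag
Ihh: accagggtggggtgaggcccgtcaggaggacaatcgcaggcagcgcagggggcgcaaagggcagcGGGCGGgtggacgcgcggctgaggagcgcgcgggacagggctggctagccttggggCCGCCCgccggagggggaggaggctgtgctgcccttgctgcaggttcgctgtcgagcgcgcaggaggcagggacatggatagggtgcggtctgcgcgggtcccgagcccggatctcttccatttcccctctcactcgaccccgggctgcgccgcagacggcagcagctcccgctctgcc

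The RefSeq table held a window for 8 of the 10 genes, and Gli1 and Boc could not be searched. These 8 windows were rich in G and C, with a median of 69.3% against 52.7% over all 32851 windows, and held 12 to 47 CpG pairs each. The GC box was found in 7 of the 8 windows, all but that of Smo, and in 35.7% of all windows. The CCAAT box was found in the windows of Gas1 and Sufu and in 37.4% of all windows. The Gli consensus GACCACCCA, searched on both strands, was in 0 of the 8 windows and in 0.253% of all windows. The windows of Ptch1 (chr13:63565686-63565985) and Gli2 (chr1:119053570-119053869) lay inside the annotated genes, which reach to 63573460 and 119054405 on the minus strand. The genes lie on 7 chromosomes, and Gas1, Ptch1 and Gli3 are all on chromosome 13.

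Levels are given as linear array intensities, on a scale where the median probe of every array is near 1 (1.03 to 1.05). A difference is the mean log2 level of ASO livers minus that of saline livers, with the standard error (SE) of the limma fit, and p-values are adjusted by Benjamini-Hochberg over all 36088 probes. Saline replicate 1 stood apart from the other arrays, with a highest value of 542 against 1198 to 2333 elsewhere. Member differences that moved by over 1.5 times or turned without it (Ptch1 probe 280029, Smo, Gli1, Gli2 and Boc) are given both ways, as are those of Ihh and Hhip. All 110 member values were above the floor of 0.192 that was set before taking logs, which is a percentile of positive values and not a limit of detection. Sufu, Smo, Ptch1 probe 167097 and Hhip were dim, at percentiles 34.5, 37.3, 43.8 and 46.4 of mean level, and Ihh was at 50.4. Mean log2 levels were -0.93 for Sufu and -0.77 for Smo, against -1.87 to -0.87 for markers of another organ, the exocrine pancreas. Whether the dim member probes read expression in liver was not tested.

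Gas1 was lower in every ASO liver than in any saline liver. Its intensity was 3.10, 2.97, 1.34, 1.19 and 2.47 in ASO replicates 1 to 5, against 13.6, 10.5, 6.13, 9.76 and 9.47 in saline replicates 1 to 5. The lowest saline liver, replicate 3, was still 1.98-fold above the highest ASO liver, and ASO replicates 3 and 4 were the lowest of all. The means were 2.21 ± 0.898 in ASO livers and 9.90 ± 2.67 in saline livers (SD, n = 5 each). On the log2 scale Gas1 averaged 1.04 ± 0.65 in ASO livers and 3.26 ± 0.42 in saline livers, a difference of -2.22, or 4.67-fold lower. Groups that did not overlap in this direction were found in 1.43% of all probes, and 5 of 36088 probes had a more negative difference than Gas1. Leaving out 1 array at a time gave differences of -2.39 to -2.03.

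**Figure D1:**
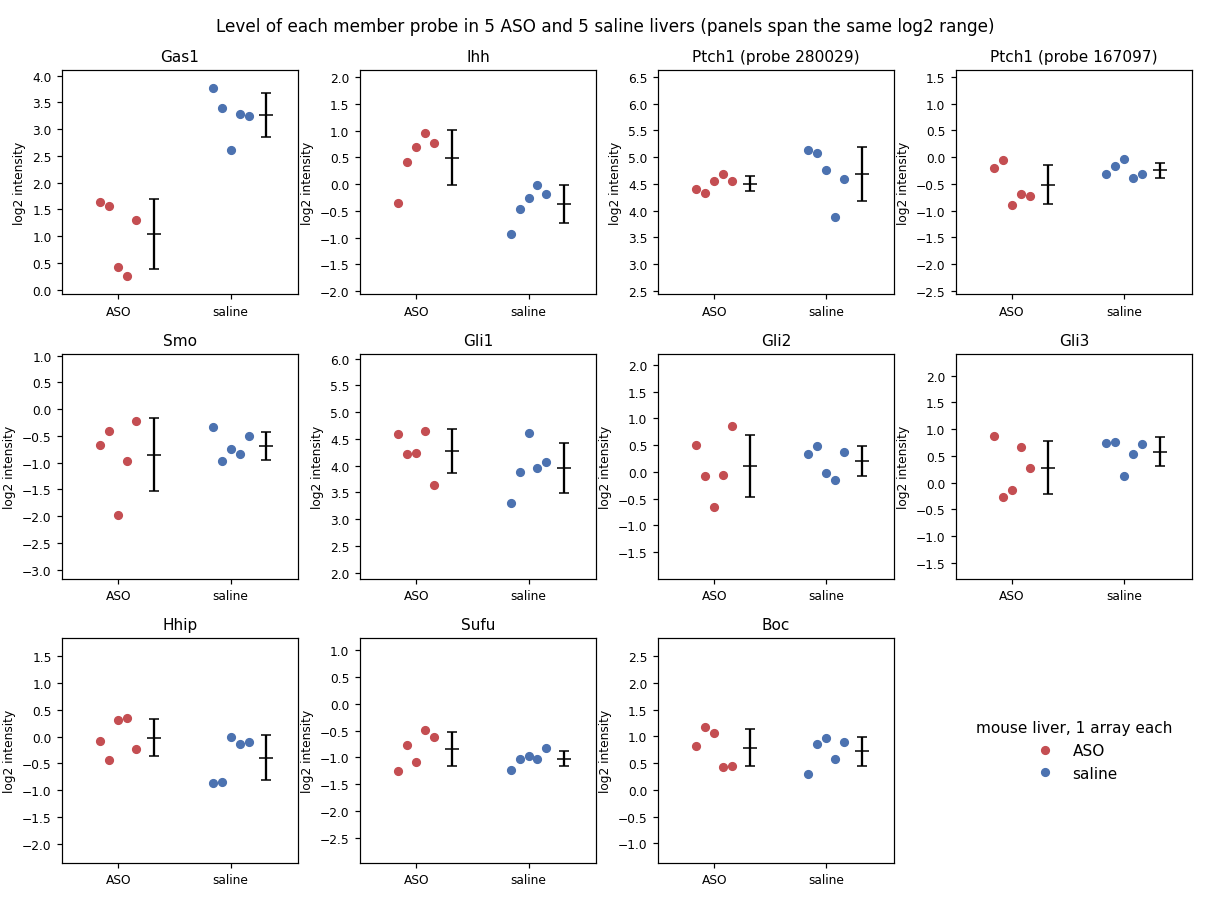
Log2 intensity of the 11 member probes in each liver, ASO on the left and saline on the right of each panel, with the mean and SD beside the points (n = 5 each). In the Gas1 panel the 5 ASO livers (0.25 to 1.63) lie below all 5 saline livers (2.62 to 3.77), and in every other panel the groups overlap.

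The ligand gene Ihh, which encodes Indian hedgehog, was higher in ASO livers without passing the adjusted threshold. Its intensity was 0.782, 1.33, 1.62, 1.94 and 1.69 in ASO replicates 1 to 5, against 0.524, 0.720, 0.837, 0.983 and 0.881 in saline replicates 1 to 5. ASO replicate 1 lay among the saline livers, and the other 4 ASO livers lay above all of them. The difference was 0.87 ± 0.26 (SE), or 1.82-fold, with limma's adjusted p = 0.274 and an unadjusted p of 0.00690. Under the alternative settings it stayed higher, between 0.59 and 1.08, with an adjusted p of 0.118 to 0.541, and it was 0.73 without saline replicate 1.

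At the level of reception, Ptch1, the Patched receptor, was read by 2 probes that both gave small negative differences. The probes were unlike in mean level, at percentile 90.5 (probe 280029) and 43.8 (probe 167097) among all probes. Probe 280029 had 21.1, 20.0, 23.5, 25.7 and 23.5 in ASO livers, against 34.9, 33.7, 27.2, 14.7 and 24.1 in saline livers. The ASO values sat close together inside the wider saline range. The difference was -0.18 ± 0.23 (SE, limma adjusted p = 0.805), and with 1 array left out it ran from -0.39 (saline replicate 4) to -0.073 (saline replicate 1). Probe 167097 ranged over 0.537 to 0.962 in ASO livers and 0.760 to 0.975 in saline livers, with a difference of -0.27 ± 0.19 (SE, limma adjusted p = 0.635) that was -0.17 without ASO replicate 3. The 95% intervals ran from -0.69 to 0.33 for probe 280029 and from -0.69 to 0.16 for probe 167097.

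Boc, a co-receptor that acts beside Gas1, had no difference past the test. It ranged over 1.34 to 2.25 in ASO livers and 1.24 to 1.96 in saline livers, with a difference of 0.063 ± 0.21 (SE, limma adjusted p = 0.939) and a 95% interval of -0.39 to 0.52. The sign of the Boc difference turned without saline replicate 1 (-0.041). Smo, which encodes Smoothened, ranged over 0.255 to 0.854 in ASO livers and 0.509 to 0.794 in saline livers. Its difference was -0.17 ± 0.30 (SE, limma adjusted p = 0.868), with the lowest value in ASO replicate 3, and the sign turned without that array (0.11). It was -0.082 without saline replicate 1, -0.28 without ASO replicate 2 and -0.33 without ASO replicate 5.

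Hhip, a surface protein that traps hedgehog ligands and is itself a target of the pathway, was slightly higher in ASO livers and did not pass. Its intensity was 0.944, 0.735, 1.24, 1.27 and 0.848 in ASO replicates 1 to 5, against 0.549, 0.554, 0.993, 0.902 and 0.929 in saline replicates 1 to 5. ASO replicates 3 and 4 were above every saline liver, and saline replicates 1 and 2 were below every ASO liver. The difference was 0.37 ± 0.24 (SE, limma adjusted p = 0.585), and it was 0.26 without saline replicate 1.

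Among the effectors, Gli1, the Gli factor that the pathway induces and that is widely read as its output, showed no change past the test. Its intensity was 24.2, 18.6, 19.0, 25.2 and 12.5 in ASO replicates 1 to 5, against 9.85, 14.6, 24.3, 15.6 and 16.8 in saline replicates 1 to 5. The ASO livers held both a low value (replicate 5) and the highest value (replicate 4), and the groups overlapped. The difference was 0.31 ± 0.26 (SE, limma adjusted p = 0.683), with an interval of -0.27 to 0.89, and it was 0.14 without saline replicate 1 and 0.47 when ASO replicate 5 or saline replicate 3 was left out.

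Gli2, the main activator among the Gli factors, ranged over 0.636 to 1.81 in ASO livers and 0.896 to 1.41 in saline livers. Its difference of -0.091 ± 0.27 (SE, limma adjusted p = 0.929) turned positive without ASO replicate 3 (0.10) and was -0.057 without saline replicate 1. Gli3, which is processed to a repressor when ligand is absent, ranged over 0.834 to 1.83 in ASO livers and 1.09 to 1.70 in saline livers, with a difference of -0.30 ± 0.25 (SE, limma adjusted p = 0.670) that was -0.17 without ASO replicate 2 and -0.20 without ASO replicate 3. Sufu, which holds Gli proteins inactive in the cytoplasm, ranged over 0.419 to 0.714 in ASO livers and 0.425 to 0.562 in saline livers, with a difference of 0.18 ± 0.18 (SE, limma adjusted p = 0.742) that was 0.093 without ASO replicate 4 and 0.29 without ASO replicate 1. The ASO livers spread more widely than the saline livers in all 3 genes.

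Of the 10 probes other than that of Gas1, 5 were higher and 5 lower, with a median difference of -0.014, beside -0.0029 over all 36088 probes. By limma 0 of the 10 passed the adjusted threshold of 0.05 in either direction, against 23 of all probes (0.0637%), 11 higher (0.0305%) and 12 lower (0.0333%). At an unadjusted p under 0.05 there was 1, the higher Ihh, against 11.2% of all probes in both directions. In 0 of the 10 were the groups apart, against 2.37% of all probes. Over the 9 genes the 95% intervals reached at most -0.84 on the lower side (Gli3) and 1.44 on the higher side (Ihh).

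**Figure D2:**
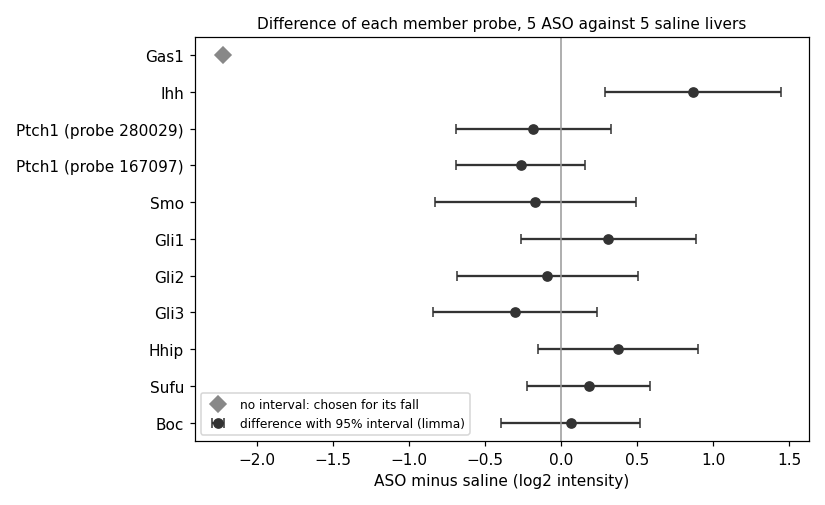
Difference of each member probe, ASO minus saline, in log2 units, with 95% intervals from limma (n = 5 livers each). Gas1 (-2.22) is drawn without an interval because it was chosen for its fall, the interval of Ihh (0.29 to 1.44) lies above 0, and those of the other 9 probes include 0.

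Liver to liver, apart from the group difference, Gas1 and Hhip ran in opposite directions. For this each value was taken as its deviation from the mean of its own group over the 10 arrays, so that the difference that chose Gas1 was removed, and the 10 other member probes were each set against Gas1. Hhip had Pearson r = -0.80 (exact permutation of deviations within groups, two-sided p = 0.00278, adjusted over the 10 relations 0.0278) and Spearman rho = -0.81 (exact permutation p = 0.00271, adjusted 0.0271). It was -0.90 within the 5 ASO livers and -0.77 within the 5 saline livers, between -0.86 and -0.76 when 1 array was left out, and -0.71 without ASO replicate 4 and saline replicate 3, the arrays farthest from the median of Gas1. Of 35579 other probes present on all arrays, 210 (0.590%) had a lower r with Gas1. The plan had relations to Gas1 within groups as a description without p-values, so the permutation tests were an addition to it. Hhip was dim, at the 46.4th percentile of mean level among all probes. The points share the authors' scaling of each array, and the part of that scaling in the relation was not tested.

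Ihh also ran against Gas1 without passing the adjustment, with r = -0.69 (exact permutation p = 0.0371, adjusted 0.185) and rho = -0.68 (exact permutation p = 0.0528, adjusted 0.264), and r was -0.66 without the same pair of arrays. Smo ran with Gas1 at r = 0.65 (exact permutation p = 0.0803, adjusted 0.268) and rho = 0.61 (exact permutation p = 0.105, adjusted 0.286), and r was 0.84 without the pair. The other 7 probes had r between -0.55 (Gli1) and 0.58 (Gli2), with adjusted exact permutation p-values of 0.283 to 0.818, and rho between -0.54 and 0.50, with adjusted exact permutation p-values of 0.286 to 0.896. Among them the 2 Ptch1 probes differed, with r = -0.072 (probe 280029) and 0.48 (probe 167097).

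**Figure D3:**
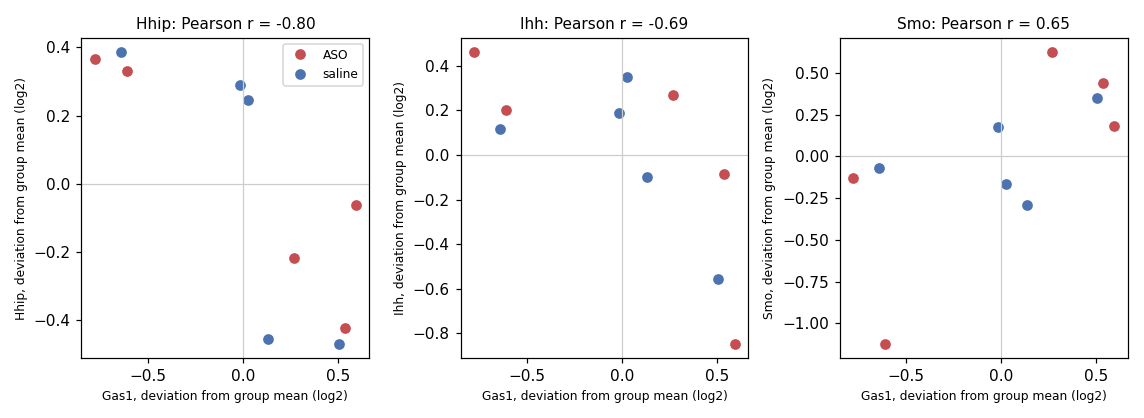
Deviation from the group mean (log2) of Hhip, Ihh and Smo against that of Gas1 in 5 ASO and 5 saline livers. Hhip is lower where Gas1 is higher in both groups (r = -0.80), Ihh likewise (r = -0.69), and Smo runs with Gas1 (r = 0.65).

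The genes whose levels were most like Gas1 were ranked among 12080 single-gene probes above the median level. Over the 10 log2 levels, which include the group difference, the closest were L3hypdh, an enzyme that dehydrates hydroxyproline (Pearson r = 0.97), the muscle Z-disc gene Myoz3 (0.96), the zinc finger gene Vezf1 (0.96), the calcium-binding protein gene Cib3 (0.96) and Lsm2, part of an RNA-binding ring in splicing (0.95). With the group means removed, the closest were Rpl8, a protein of the large ribosomal subunit (0.95), Lsm2 (0.95), the beta-defensin gene Defb33 (0.94), the endoplasmic reticulum isomerase gene Fkbp2 (0.94) and the telomere gene Stn1 (0.94). These 5 stayed between 0.91 and 0.99 when 1 array was left out. Over all candidates the middle of that distribution was 0.032, with the 5th percentile at -0.56 and the 95th at 0.68, and no p is given because the genes were picked as the highest.

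Beyond the members, 7 further lists covered other hedgehog genes, other growth arrest-specific genes, and GDNF receptors with their ligands. Of these genes 0 passed the adjusted test in either direction, against 0.0637% of all probes. The lists held 77 genes, of which 66 were measured, 29 higher and 37 lower (56.1%), with a median difference of -0.079. At an unadjusted p under 0.05 there were 3 higher and 7 lower, against 4.58% and 6.66% of all probes. Lower values were also more frequent among all probes above the median level (59.9%).

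Of the genes for ligands and their release, 8 of 9 were measured, 5 higher and 3 lower, with a median of 0.028. Disp2, a relative of the Dispatched proteins that release ligand from the cell, had 1.32, 0.863, 1.22, 1.03 and 2.63 in ASO livers, against 2.93, 2.38, 2.66, 2.73 and 1.91 in saline livers. ASO replicates 1 to 4 were below all saline livers and ASO replicate 5 was among them, and the difference was -0.94 ± 0.28 (SE, limma adjusted p = 0.262). Gpc3, a surface proteoglycan that competes for ligand, had 0.54 ± 0.24 (SE, limma adjusted p = 0.422). Its probe was near the floor, with 3 of 10 values raised to it, and the difference was 0.24 with a pseudocount and 0.71 without the floor. Dhh, the Desert hedgehog gene, had -0.39 ± 0.23 (SE, limma adjusted p = 0.540), and -0.26 without ASO replicate 5. Its probe was also near the floor, with 1 of 10 values raised to it, and Dhh had -0.20 with a pseudocount and -0.57 without the floor. In the reception list, which held receptors, co-receptors and Mgrn1, 4 of 6 genes were measured, 2 higher and 2 lower, with a median of -0.055. Cdon, the third co-receptor beside Gas1 and Boc, averaged 3.93 ± 0.31 in ASO livers and 3.73 ± 0.26 in saline livers on the log2 scale (SD, n = 5 each), a difference of 0.20 ± 0.20 (SE, limma adjusted p = 0.737) that ran from 0.11 without ASO replicate 5 to 0.31 without saline replicate 1. Mgrn1, a ubiquitin ligase that lowers Smoothened at the surface, had -0.34 and Gpr161, a ciliary receptor that damps the pathway, -0.18, and neither passed. Mgrn1 was -0.048 without ASO replicate 3, and Gpr161 was -0.058 without ASO replicate 2 and -0.31 without ASO replicate 3.

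Genes that carry or damp the signal between Smoothened and Gli were lower more often than higher, 12 of 15 measured (80.0%), with a median of -0.33. The share lower was 50.3% of all probes, 53.9% of single-gene probes and 59.9% of probes above the median level. Only 8 of the 15 genes lay above the median level. Stk36, Prkaca and Prkacb, counted as lower, and Kif7, counted as higher, lay near the floor, with mean log2 levels of -2.03 to -1.63 against -2.38. By limma 0 of the 15 passed, against 0.0637% of all probes. At an unadjusted p under 0.05 there were 2, both lower, against 6.66% of all probes and 1876 of the 18044 above the median level in that direction. Rab23, a small GTPase that opposes the pathway, had a difference of -0.64 ± 0.24 (SE, limma adjusted p = 0.366). Spop, a ubiquitin ligase adaptor that marks Gli proteins for breakdown, had -0.50 ± 0.20 (SE, limma adjusted p = 0.388). Csnk1a1, a casein kinase that phosphorylates Gli proteins, had -0.70 ± 0.44 (SE, limma adjusted p = 0.574), and -0.35 without ASO replicate 3. The median of the list was -0.30 under quantile normalization and -0.19 to -0.41 with 1 array left out. Cilium genes were evenly split, 7 higher and 6 lower of 13 measured, with a median of 0.087, and Dync2h1 (0.34), Ift52 (-0.35) and Inpp5e (0.29) had adjusted p-values of 0.541 to 0.654 by limma. Ift52 was -0.17 without ASO replicate 2 and -0.55 without ASO replicate 1, and Inpp5e was 0.17 without saline replicate 1.

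Genes that Gli factors are known to induce in some tissues showed no common direction, with 5 higher and 7 lower of 12 measured and a median of -0.057. At an unadjusted p under 0.05 by limma there were 1 higher and 3 lower, against 4.58% and 6.66% of all probes. The largest difference was that of Foxm1, at -0.84 ± 0.38 (SE, limma adjusted p = 0.433). Bcl2, which protects cells from apoptosis, was higher in all 5 ASO livers than in the 4 saline livers with a value (missing on saline replicate 3), a separation found in 0.939% of all probes, with a difference of 0.55 ± 0.22 (SE, limma adjusted p = 0.381). Snai1, a repressor active in mesenchymal transition, had -0.62 ± 0.24 (SE, limma adjusted p = 0.374) and the cell cycle kinase gene Cdk6 -0.63 ± 0.24 (SE, limma adjusted p = 0.375). A dimmer Cdk6 probe gave -0.21, and another had 6 of 10 values at the floor and gives no reading of the difference.

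Among other growth arrest-specific genes, Gas2 also lay apart between the groups, as did 1.43% of all probes in this direction. Gas2, an actin-associated protein, had 2.46, 6.74, 5.58, 4.69 and 3.45 in ASO replicates 1 to 5, against 10.6, 12.0, 12.4, 14.6 and 9.45 in saline replicates 1 to 5. All 5 ASO livers were below all 5 saline livers. The difference was -1.44 ± 0.27 (SE, limma adjusted p = 0.107), so it did not pass in the fit used here, and it did pass with a pseudocount in place of the floor (0.0421), with only probes above the median level (0.0352) and with a trended and robust variance (0.0487). Over all alternatives its adjusted p ran from 0.0352 to 0.288.

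Gas6, the ligand of the TAM receptor kinases, had higher values in ASO livers without passing the test. It had 10.6, 21.5, 15.3, 17.5 and 15.3 in ASO replicates 1 to 5, against 7.99, 8.51, 9.30, 11.8 and 10.3 in saline replicates 1 to 5, and only ASO replicate 1 fell within the saline range. The difference was 0.72 ± 0.21 (SE, limma adjusted p = 0.251). Gas2l1 had -0.54 ± 0.26 (SE, limma adjusted p = 0.471), and of the 6 measured genes of this list 3 were higher and 3 lower. The GDNF list held the Gfra receptors, to which Gas1 is related in structure, with Ret and the ligands. In that list 8 of 10 genes were measured, 4 higher and 4 lower, with a median of 0.00030. Gfra1 was at 0.24, Nrtn at -0.42 and Gfra3 at -0.58, none past the test. Gfra3, with 1 value raised to the floor, was -0.31 with a pseudocount, -1.09 without the floor and -0.38 without ASO replicate 4. Gfra1 was 0.13 without ASO replicate 5, and Nrtn was -0.27 without saline replicate 5.

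**Figure D4:**
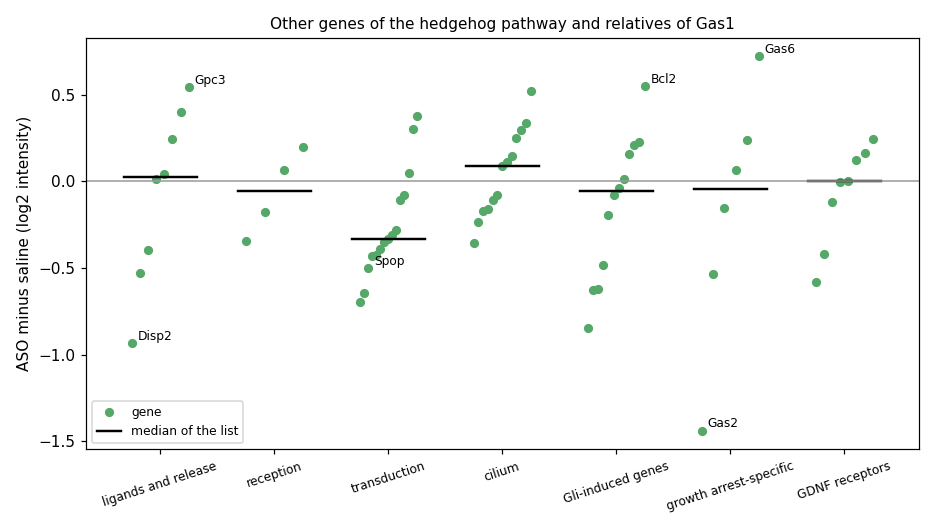
Difference of each measured gene, ASO minus saline in log2 units, in the 7 lists of other hedgehog genes, other growth arrest-specific genes and GDNF receptors with their ligands (n = 5 livers each, except Bcl2 with 4 saline livers), with the median of each list as a bar. Medians lie between -0.33 (transduction) and 0.087 (cilium), with Gas2 (-1.44) and Gas6 (0.72) at the ends.

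Levels in whole liver do not tell fewer cells of a type from less RNA per cell. Gas1 taken relative to a marker mean still holds the values that chose it. Those relative differences, here and in the next paragraph, are description only, and the part of cell content was not tested. Stellate cell and fibroblast markers, 12 of 13 measured, had summed intensities of 115 to 192 in ASO livers and 133 to 192 in saline livers, with 5 higher and 7 lower. Their mean log2 level differed by -0.11, and Gas1 taken relative to that mean differed by -2.11, with the highest ASO liver (0.43) below the lowest saline liver (0.87). Col3a1 had -0.34, Pdgfrb -0.41 and Pdgfra 0.24, and none passed. Pdgfrb was -0.22 without ASO replicate 2 and Pdgfra 0.13 without ASO replicate 3. Portal fibroblast markers, all 5 measured and 4 of them lower, summed to 5.86 to 8.44 in ASO livers and 8.14 to 9.39 in saline livers, and Gas1 relative to their mean level differed by -2.01. Mesothelial markers, 5 of 6 measured, were dim and summed to 3.51 to 6.58 in ASO livers and 3.14 to 7.80 in saline livers, and Gas1 relative to them differed by -1.99. Of these 3 lists, 0 genes were at the floor on every array, but some lay near it and still entered the list means. The stellate gene Hand2 had a mean log2 level of -2.32, against -2.38 for the floor. The mesothelial gene Wt1 and the portal fibroblast gene Cd34 each had 2 of 10 values raised to the floor.

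Hepatocyte markers, 7 of 8 measured, summed to 5981 to 7887 in ASO livers and 2816 to 6579 in saline livers, with 6 higher and 1 lower and a median difference of 0.41. The low end was saline replicate 1, and the other saline livers began at 4712, so the defining genes of the labelled tissue were present. Bile duct markers, 6 of 8 measured with 3 higher and 3 lower, summed to 7.05 to 9.64 in ASO livers and 7.33 to 10.1 in saline livers. Their largest difference was -0.62 ± 0.24 for Krt19 (SE, limma adjusted p = 0.377). Endothelial markers had 5 higher and 4 lower of 9. The largest difference among these was 0.87 ± 0.28 for Cdh5 (SE, limma adjusted p = 0.283), with 1 of 10 values raised to the floor. It ran from 0.43 to 1.24 over the alternatives that kept all arrays. Kupffer cell markers had 3 higher and 4 lower of 7. Relative to the mean Kupffer level Gas1 differed by -2.15, and there the groups overlapped, with a highest ASO value of -0.020 and a lowest saline value of -0.22. Lymphocyte markers were lower in ASO livers in 4 of 6, with a median of -0.37 and sums of 6.24 to 8.70 in ASO livers and 8.58 to 12.3 in saline livers, so that only ASO replicate 5 reached the saline range. The B cell gene Ms4a1 was lower in all 5 ASO livers than in any saline liver, against 1.43% of all probes, with a difference of -0.57 ± 0.16 (SE, limma adjusted p = 0.246). Cd79a, of the B cell receptor, had -0.51 ± 0.23 (SE, limma adjusted p = 0.448). Klrb1c, of natural killer cells, had -0.91 ± 0.36 (SE, limma adjusted p = 0.383). Its probe had 2 of 10 values raised to the floor, and its difference ran from -1.76 to -0.57 over the alternatives that kept all arrays. The 2 higher genes were Nkg7, also of natural killer cells (0.24), and the T cell gene Cd3e (0.063), which lay near the floor. Gas1 relative to the mean lymphocyte level differed by -1.91, with the highest ASO liver (2.25) below the lowest saline liver (2.86). Red blood cell markers had 2 higher and 1 lower of 3. Exocrine pancreas markers, 4 of 5 measured, summed to 1.12 to 1.94 in ASO livers and 1.66 to 2.14 in saline livers. None of the marker genes passed the adjusted test by limma, against 0.0637% of all probes.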

How the data were processed

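RNA of 10 individual mouse livers was measured on 10 arrays, labelled by the CodeLink assay per the labels. The deposited values are linear intensities that the authors had already brought to a common median, and how they were scanned, background-corrected and scaled, and why some are missing, is not given in the sources used. The table held 36227 probes, and 139 with fewer than 3 values in a group were left out. Intensities under 0.192, the 10th percentile of positive values, were raised to it before log2. The groups were compared by limma 3.58.1 in R 4.3.3 (lmFit, eBayes, no covariate), with two-sided p-values adjusted by Benjamini-Hochberg across probes. Annotation named a single gene for 21615 probes, of which 21487 matched the GRCm38.p6 gene table by Entrez ID. For lists, the probe of highest mean level stood for its gene.

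The members and lists were chosen with earlier results of these data known. Named were all members and up to 3 genes per list with the smallest adjusted p (of the marker lists, for stellate cells, lymphocytes and, in the closing section, 1 portal fibroblast gene). Also named were Foxm1, Cdh5, Krt19, the 2 higher lymphocyte genes, and some pathway and marker genes near the floor. The 5 probes most like Gas1 on each measure were named too, skipping clone names. The fit was tested on simulated data. Alternatives were quantile and cyclic loess normalization, no floor, a pseudocount of 0.5, leaving out probes under the median level, a trended and robust variance, array weights, leaving out each array, the mean of a gene's probes and Spearman's rho. The number of arrays limits the precision.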

Additional observations from a re-analysis of the deposited data

How the results depend on the processing

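The Gas1 difference kept its sign and moved by less than 1 SD in all 16 alternatives computed for it, 2 of which (no floor and leaving out dimmer probes) cannot move it, between -2.39 and -1.97. The count of member probes past the threshold, Gas1 apart, was 0 in all 17, a trended and robust variance included. With 1 array left out, Smo ran from -0.33 to 0.11, turned without ASO replicate 3, and Gli2 from -0.28 to 0.10, turned without the same array. Boc ran from -0.041 to 0.15, turned without saline replicate 1 (-0.041), ASO replicate 2 (-0.033) or ASO replicate 3 (-0.0076). The portal fibroblast gene Entpd2 (-0.20) ran from -0.29 to 0.019, turned without ASO replicate 4. The count over all probes (23) was 39 under cyclic loess, 7 without the floor, 43 with a pseudocount, 73 when dimmer probes were left out, 42 with a trended and robust variance, and 0 to 16 with 1 array left out. The median of the ligand list was -0.24 without the floor and again without dimmer probes, where those of cilium and target genes were -0.092 and -0.48. The cilium median ran from -0.076 to 0.16 with 1 array left out. The cause of these moves was not tested. No paired analysis was possible because the labels give no replicate numbers shared between the groups.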

Other observations

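The genes around Gas1 on chromosome 13 were looked at after its values were known. Of 39 protein-coding genes that start within 2 Mb of it in GRCm38.p6, 31 were measured, 11 higher and 20 lower in ASO livers, with differences of -0.54 to 0.48 and a median of -0.053. By limma 0 of them passed the adjusted threshold, against 0.0637% of all probes, 2 had an unadjusted p under 0.05, against 11.2% of all probes, and in 0 were the groups apart, against 2.37% of all probes. The nearest measured protein-coding genes on either side were Tut7, an enzyme that adds uridines to RNA, with a difference of -0.14 ± 0.27 (SE, limma adjusted p = 0.875), and Dapk1, a kinase of cell death, with -0.010 ± 0.28 (SE, limma adjusted p = 0.995).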
